A study of Mus musculus with 8 samples.

Results

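The 40 genes described here are induced by interferon, the group of cytokines that cells release when they sense foreign or misplaced nucleic acids. They were chosen by name, with earlier results of these data known, and all 40 were found among the 13305 genes of the deposited count table. Their levels were measured by RNA-seq of whole bone marrow (BM), with 1 library per mouse, in a C57BL/6N model of acute myeloid leukemia (AML). All 8 mice carried Mx1-Cre, had lost 1 copy of the DNA methyltransferase gene Dnmt3a (Dnmt3a+/-) and carried the activating Flt3-ITD insertion on both alleles (Flt3ITD/ITD). They differed in Gab2, which encodes an adaptor protein of receptor tyrosine kinases: 3 AML WT mice were Gab2+/+, 2 AML HET mice were Gab2+/- and 3 AML KO mice were Gab2-/-. The labels give no age for these mice. The Gab2 KO allele has a neomycin cassette in place of several exons. Cre stands under the promoter of Mx1, which is itself interferon-induced, in every group, and the study's mice were analysed without injection of the interferon inducer pIpC because Cre was active without it.

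Type I interferons bind a receptor whose kinases activate the factor ISGF3, of which STAT2 and IRF9 are parts. This factor binds the interferon-stimulated response element in the promoters of target genes, whose products sense nucleic acids, block translation, degrade RNA or attach the ubiquitin-like protein ISG15 to other proteins. In BM these genes respond in most cell types, and interferon is known to drive quiescent stem cells into cycle. Interferon gamma acts at the gamma activated site and induces a partly shared set of genes, among them the guanylate-binding GTPases.

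The response element can be read directly in the promoters of these genes. RefSeq promoter windows (GRCm38.p6, 250 bases before to 50 bases after the start site) were matched for 30 of the 40 genes. The letters GAAANNGAAA were searched on both strands, with overlapping matches allowed, and 14 of these 30 genes (46.7%) held at least 1 match in a window of theirs, against 3.99% of the 27025 genes of that promoter table. The palindromic gamma activated site TTCNNNGAA, which may overlap the first motif, was present in 7 of 30 (23.3%) against 9.55%. The 7 windows below are those of the matched genes with a match before the start site in which AML WT replicate 3 most exceeded the other AML WT mice. They read 5′ to 3′ along the gene, with the matches in capitals:
Isg15, chr4:156200845-156200926, minus strand: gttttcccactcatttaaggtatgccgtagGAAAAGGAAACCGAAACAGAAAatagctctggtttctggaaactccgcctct
Ifit3, chr19:34583343-34583446, plus strand: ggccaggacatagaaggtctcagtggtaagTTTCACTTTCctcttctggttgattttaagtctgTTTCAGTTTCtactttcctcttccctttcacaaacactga
Ifit1, chr19:34640755-34640843, plus strand: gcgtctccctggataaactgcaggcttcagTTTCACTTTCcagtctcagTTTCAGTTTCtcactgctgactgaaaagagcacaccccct
Rsad2, chr12:26456533-26456602, minus strand: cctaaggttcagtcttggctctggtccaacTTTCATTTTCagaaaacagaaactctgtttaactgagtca
Oas1a, chr5:120907526-120907575, minus strand: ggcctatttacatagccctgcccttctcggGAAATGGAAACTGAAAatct
Oas3, chr5:120777695-120777764, minus strand: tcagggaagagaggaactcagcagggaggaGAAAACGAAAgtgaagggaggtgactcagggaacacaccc
Gbp2, chr3:142620574-142620643, plus strand: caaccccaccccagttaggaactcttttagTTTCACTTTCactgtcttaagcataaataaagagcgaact
Isg15 held 3 overlapping matches between 78 and 66 bases before its start site, and Ifit3 held 2 that began 156 and 122 bases before it. In Ifit3, Ifit1, Rsad2 and Gbp2 the match stood on the opposite strand, where it reads TTTCNNTTTC. These matches are descriptions of the sequence, since binding was not measured here. Ifi44, Oasl1 and Oasl2, which were also far higher in AML WT replicate 3, held no match in the windows searched. The ratio of AML WT replicate 3 to the mean of the other AML WT mice was 0.97 to 13.1 (median 1.73) in the 16 genes without a match. It was 0.72 to 10.7 (median 3.14) in the 14 with at least 1, and a link to the matches was not tested.

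The libraries held 28009258 to 39266815 counts, so that even Ifi44, the member with the fewest reads, had 5 to 323 counts per mouse. Gab2, on chromosome 7, was lower in AML KO than in AML WT BM (log2 fold change −0.87, standard error 0.18, edgeR quasi-likelihood adjusted p = 0.0420), with 93.9, 68.5 and 61.6 CPM (reads scaled by library size) in AML WT and 35.0, 47.2 and 40.2 in AML KO mice. Every AML KO value was below every AML WT value, but the adjusted p of Gab2 was above 0.05 in 6 of 8 fits that each left out 1 mouse (all but those without AML WT replicate 3 or AML KO replicate 2). None of the 40 interferon-induced genes lies on that chromosome (0 of 40). In whole BM, fewer cells of a type and less RNA per cell cannot be told apart.

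Most of the interferon-induced genes differed widely between mice of the same genotype. AML WT replicate 3 and AML HET replicate 1 were the 2 highest of the 8 mice in 36 of the 40 genes, against 4.96% of all genes. These 2 mice were singled out after their values were seen, and no test was made on them as a group. AML WT replicate 3 was the highest of the AML WT mice in 37 genes (34.5% of all genes), and AML HET replicate 1 was above AML HET replicate 2 in 40 of 40 (49% of all genes). The exceptions to the pair were Gbp7 and Dtx3l, highest in AML WT replicate 1, Trim25, in which AML WT replicate 1 was second, and Ifi35, in which AML KO replicate 1 was second. Summed over the 40 genes, the level was 1814, 1579 and 3517 CPM in AML WT, 3213 and 1896 in AML HET, and 1678, 1797 and 1574 in AML KO mice.

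**Figure D1:**
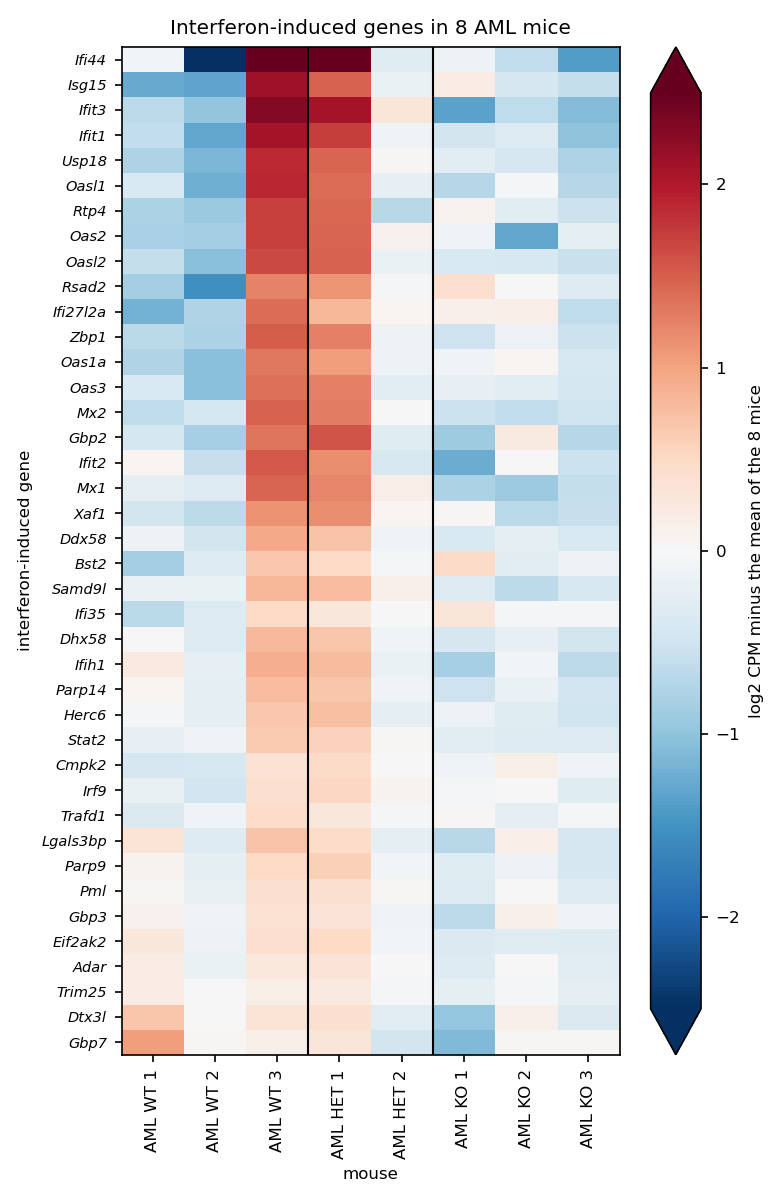
Level of each of the 40 genes (rows, ordered by how much AML WT replicate 3 exceeded the other AML WT mice) in each mouse (columns), as log2 CPM minus the mean of the 8 mice, with colours ending at ±2.5. AML WT replicate 3 and AML HET replicate 1 are red in nearly all rows, while Gbp7 and Dtx3l at the bottom are highest in AML WT replicate 1.

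Within AML WT, the highest mouse was at least 2 times the lowest in 28 of 40 genes, against 10.8% of all genes. The ratio of highest to lowest CPM had a median of 2.78 over the 40 genes and of 1.35 over all genes, and ranged from 1.14 (Trim25) to 62.6 (Ifi44). Without AML WT replicate 3 the median over the 40 genes was 1.26. Within AML KO the same ratio had a median of 1.34 (1.36 over all genes), and 6 of 40 genes reached 2 times, against 13.4% of all genes. Thus the wide spread was seen in AML WT and between the 2 AML HET mice but not among the AML KO mice, and with 2 or 3 mice per genotype a difference in spread between genotypes was not tested.

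**Figure D2:**
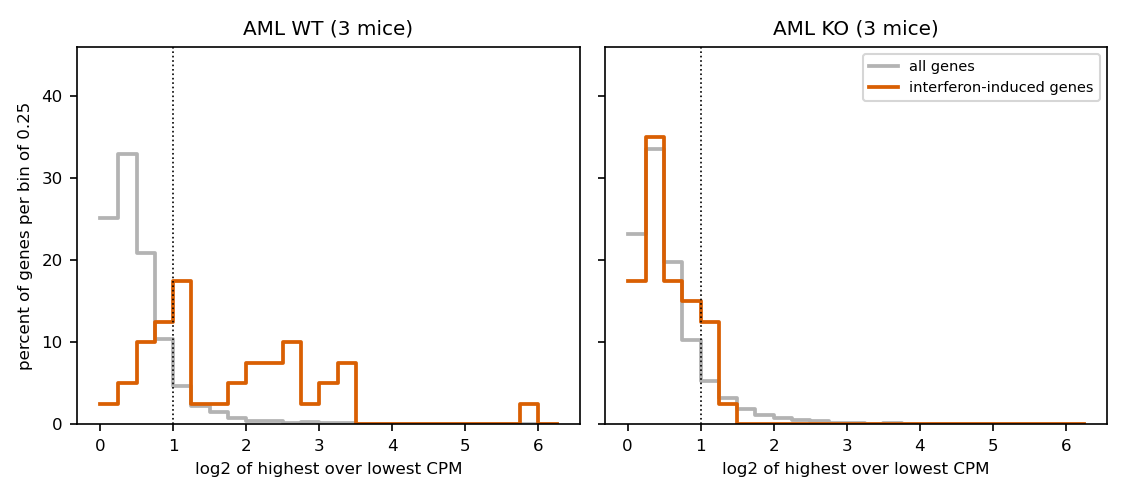
Percent of genes (vertical axis, bins of 0.25) by the log2 ratio of the highest to the lowest CPM of the 3 mice, for AML WT (left) and AML KO (right), with a dotted line at a ratio of 2. The interferon-induced genes (orange, 40) extend far to the right of all genes (grey, 13305) in AML WT and lie over them in AML KO.

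Isg15 (ENSMUSG00000035692, chromosome 4, 156199424 to 156200818), the ubiquitin-like modifier itself, had 5.83, 5.56 and 61.0 CPM in AML WT, 39.3 and 12.4 in AML HET, and 15.9, 10.5 and 9.22 in AML KO mice. AML WT replicate 3 thus stood 10.7 times above the mean of the other 2 AML WT mice, which in turn lay below every AML KO mouse. Usp18, the protease that removes ISG15 and restrains the interferon receptor, had 9.56, 7.396 and 59.6 CPM in AML WT, 45.0 and 16.7 in AML HET, and 13.6, 12.2 and 9.61 in AML KO mice. Herc6, a ligase for ISG15 in the mouse, varied less, by 1.91 times within AML WT. Trim25, a ubiquitin ligase that acts on the sensor RIG-I, was nearly level across mice, with 133.0 to 151 CPM in AML WT, 157 and 128 in AML HET and 112 to 130 in AML KO mice.

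The 3 IFIT genes belong to a family with members that bind foreign RNA and stop its translation. Ifit3 (ENSMUSG00000074896, chromosome 19, 34583531 to 34588731) had 7.72, 6.10 and 59.7 CPM in AML WT, 51.7 and 14.9 in AML HET, and 4.74, 7.75 and 5.69 in AML KO mice. Ifit1 had 4.08, 2.53 and 26.9 CPM in AML WT, 21.1 and 5.83 in AML HET, and 4.58, 4.99 and 3.09 in AML KO mice. Ifit2 had 20.1, 13.1 and 56.3 CPM in AML WT, 43.6 and 14.8 in AML HET, and 8.27, 19.7 and 13.4 in AML KO mice. In all 3, the AML KO values lay among those of AML WT replicates 1 and 2 and AML HET replicate 2, or below them. Ifit genes have near-identical copies next to them, such as Ifit3b, and how reads were shared between copies is not given in the sources used here, so single values of this family are uncertain. The same holds for the Oas1 and Gbp families.

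The 2-5A synthetases, which make the oligoadenylates that switch on RNase L, and their relatives had the same 2 highest mice. Oas3 had 28.3, 17.8 and 95.7 CPM in AML WT, 88.9 and 30.5 in AML HET, and 31.9, 30.7 and 27.2 in AML KO mice. Over Oas1a, Oas2, Oas3, Oasl1 and Oasl2, AML WT replicate 3 was 4.16 to 6.21 times the mean of the other AML WT mice, and AML HET replicate 1 was 2.26 to 3.13 times AML HET replicate 2. Within AML KO these 5 genes ranged by 1.13 to 2.33 times, the widest being Oas2.

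Of the 11 other antiviral effectors, Mx1 and Mx2 belong to a family of dynamin-like GTPases. Only their RNA was measured, so no antiviral protein activity in these mice is implied. Mx1 (ENSMUSG00000000386, chromosome 16, 97447035 to 97462907) had 38.8, 36.7 and 126 CPM in AML WT, 107 and 51.6 in AML HET, and 26.2, 24.4 and 30.4 in AML KO mice, so that every AML KO mouse was below the other 5. Rsad2, which encodes viperin, had 9.02, 5.60 and 38.2 CPM in AML WT, 34.7 and 15.8 in AML HET, and 21.7, 16.1 and 13.1 in AML KO mice, so that AML WT replicates 1 and 2 were the lowest of all. Bst2, encoding the virion tether tetherin, had 72.4, 104 and 208 CPM in AML WT, 183 and 126 in AML HET, and 181, 106 and 117 in AML KO mice. Bst2 and Ifi27l2a had the highest levels per length of the 40 genes, with 152 and 235 CPM per kilobase of exon as means over the 8 mice.

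Eif2ak2, encoding the RNA-activated kinase PKR, was flatter, with 55.3, 41.1 and 60.4 CPM in AML WT, 64.5 and 43.1 in AML HET, and 35.5, 36.9 and 36.2 in AML KO mice. Adar, which edits double-stranded RNA, and Pml, the scaffold of nuclear bodies, ranged within AML WT by 1.33 and 1.50 times. Cmpk2, a nucleotide kinase encoded next to Rsad2, ranged by 1.71 times, and Samd9l, Xaf1 and Rtp4 by 2.02, 3.42 and 6.28 times. Thus the effectors differed among themselves in the size of the step from mouse to mouse but, apart from the exceptions named above, not in which 2 mice were highest.

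**Figure D3:**
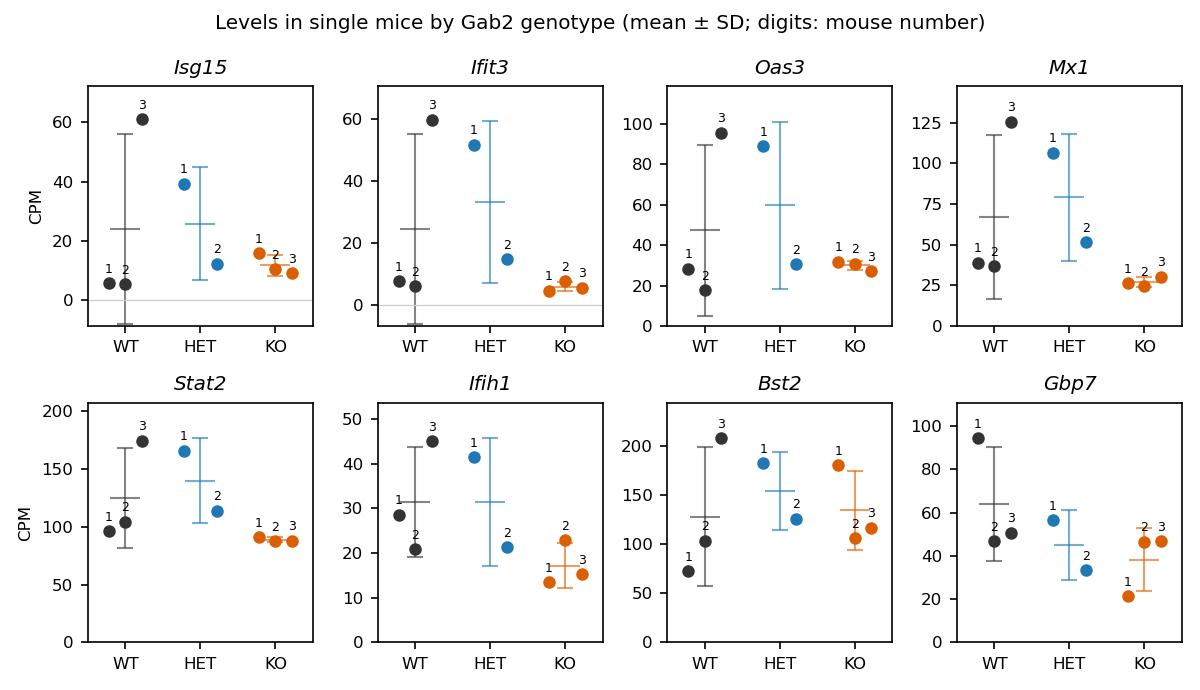
CPM (vertical axes) of 8 of the genes in single mice (points, with the mouse number) by Gab2 genotype, with the mean (horizontal line) and the SD (bars). Isg15, Ifit3, Oas3 and Mx1 each have 1 high AML WT and 1 high AML HET mouse, while Gbp7 is highest in AML WT replicate 1 and in Bst2 AML KO replicate 1 is close to the high mice.

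The transcription factors and most sensors had smaller steps between mice than Isg15 or Ifit3. Stat2 had 96.5, 104 and 175 CPM in AML WT, 166 and 114 in AML HET, and 91.3, 87.4 and 88.1 in AML KO mice, and here all AML KO mice were below all others. Irf9 ranged by 1.85 times within AML WT, from 61.8 to 115 CPM, and lay at 69.6 to 85.5 in AML KO mice. Ifih1, encoding the RNA sensor MDA5, had 28.6, 20.9 and 45.1 CPM in AML WT, 41.5 and 21.3 in AML HET, and 13.4, 22.9 and 15.3 in AML KO mice. The ratio of AML WT replicate 3 to the mean of the other AML WT mice was 1.82 for Ifih1, 2.37 for Ddx58 (RIG-I), 1.96 for Dhx58 (LGP2) and 4.75 for Zbp1, a sensor of Z-form nucleic acids.

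Parp9, Dtx3l and Parp14 encode ADP-ribosyltransferases and, for Dtx3l, the ubiquitin ligase that pairs with PARP9. Dtx3l had 86.2, 52.9 and 67.3 CPM in AML WT, 70.2 and 44.0 in AML HET, and 27.1, 58.2 and 41.2 in AML KO mice, an order unlike that of Isg15. Parp9 and Dtx3l lie head to head on opposite strands and share 682 bases. Reads there cannot be told apart without strand, which is not given in the sources used here. Other members overlap a gene on the opposite strand as well: Adar overlaps Chrnb2 by 7252 bases, Parp9 overlaps Gm15564 by 5854 and Eif2ak2 overlaps Gm26637 by 532. Irf9 overlaps Rnf31 by 123 bases on the same strand. These lengths are of whole genes with introns. Parp14 had 104, 84.3 and 171 CPM in AML WT, 163 and 92.5 in AML HET, and 69.8, 89.9 and 72.4 in AML KO mice.

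The guanylate-binding GTPases, which attack the vacuoles of intracellular microbes, were split. Gbp2 had 22.5, 17.1 and 77.3 CPM in AML WT, 90.6 and 24.5 in AML HET, and 16.5, 35.6 and 18.5 in AML KO mice. Gbp7 had 94.4, 46.8 and 50.7 CPM in AML WT, 56.5 and 33.5 in AML HET, and 21.5, 46.6 and 46.7 in AML KO mice, so that AML WT replicate 1 stood apart. Gbp3 had smaller steps, with 72.0 to 101 CPM in AML WT and 48.6 to 83.8 in AML KO mice. Over the 8 mice, Pearson's r between a gene's centred log2 CPM and the mean of the other 39 genes was 0.17 for Gbp7 and 0.43 for Dtx3l, and 0.65 to 0.99 for the rest, as a description of 8 libraries.

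Of the 5 genes with less defined roles, Ifi44 (ENSMUSG00000028037, chromosome 3, 151730922 to 151749960) varied most, with 1.35, 0.158 and 9.89 CPM in AML WT, 8.59 and 1.15 in AML HET, and 1.31, 0.910 and 0.501 in AML KO mice. Its lowest value rested on 5 counts, so the ratio of 62.6 is limited by counting error as well. Ifi27l2a had 40.9, 55.3 and 245 CPM in AML WT, 166 and 95.7 in AML HET, and 102, 104 and 60.2 in AML KO mice. Ifi35, Lgals3bp and Trafd1 ranged within AML WT by 2.28, 2.06 and 1.76 times.

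For the loss of both Gab2 alleles, none of the 40 genes passed the threshold (edgeR quasi-likelihood test over all 13305 genes, Benjamini-Hochberg adjusted p under 0.05), where 2.09% of all genes did. The smallest adjusted p was 0.217. In all, 37 of the 40 had a lower mean level in AML KO than in AML WT BM, with a median log2 fold change of −0.62 (−0.02 over all genes) and a median standard error of 0.36 (0.19 over all genes). At an unadjusted p under 0.05 there were 7, all lower in AML KO: Ifit3, Mx1, Eif2ak2, Samd9l, Ifih1, Parp14 and Dtx3l, against 7.88% of all genes. Limma-voom also called 0 of 40, and DESeq2 called 0 of the 38 to which it gave a p, leaving out Isg15 and Ifit3.

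On the log2 scale, Mx1 differed by −1.31 (standard error 0.46, edgeR adjusted p = 0.218) and Ifit3 by −2.02 (standard error 0.84, edgeR adjusted p = 0.264). Eif2ak2 had a smaller change with a smaller error, −0.53 (standard error 0.19, edgeR adjusted p = 0.217). Every AML KO mouse lay below every AML WT mouse in 6 of the 40 genes, Mx1, Stat2, Trim25, Samd9l, Gbp7 and Eif2ak2, against 9.83% of all genes, and for each of them the exact two-sided permutation p of the difference was 0.1, the smallest that 3 mice against 3 allow.

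The direction of the median rested on 1 mouse. Without AML WT replicate 3, the median log2 fold change of the 40 genes was 0.070, 20 of the 40 genes were higher in AML KO, and again 0 of 40 passed the threshold. Isg15 moved from −1.02 (edgeR adjusted p = 0.517) to 1.06 (edgeR adjusted p = 0.227), and Rsad2 from −0.05 (edgeR adjusted p = 0.968) to 1.21 (edgeR adjusted p = 0.163). At an unadjusted p under 0.05, 7 genes were then higher in AML KO, against 10.4% of all genes, and Gbp7 was lower. Mx1 kept a lower level in AML KO, at −0.48, and so did Eif2ak2 at −0.41 and Dtx3l at −0.72, each without passing the threshold.

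**Figure D4:**
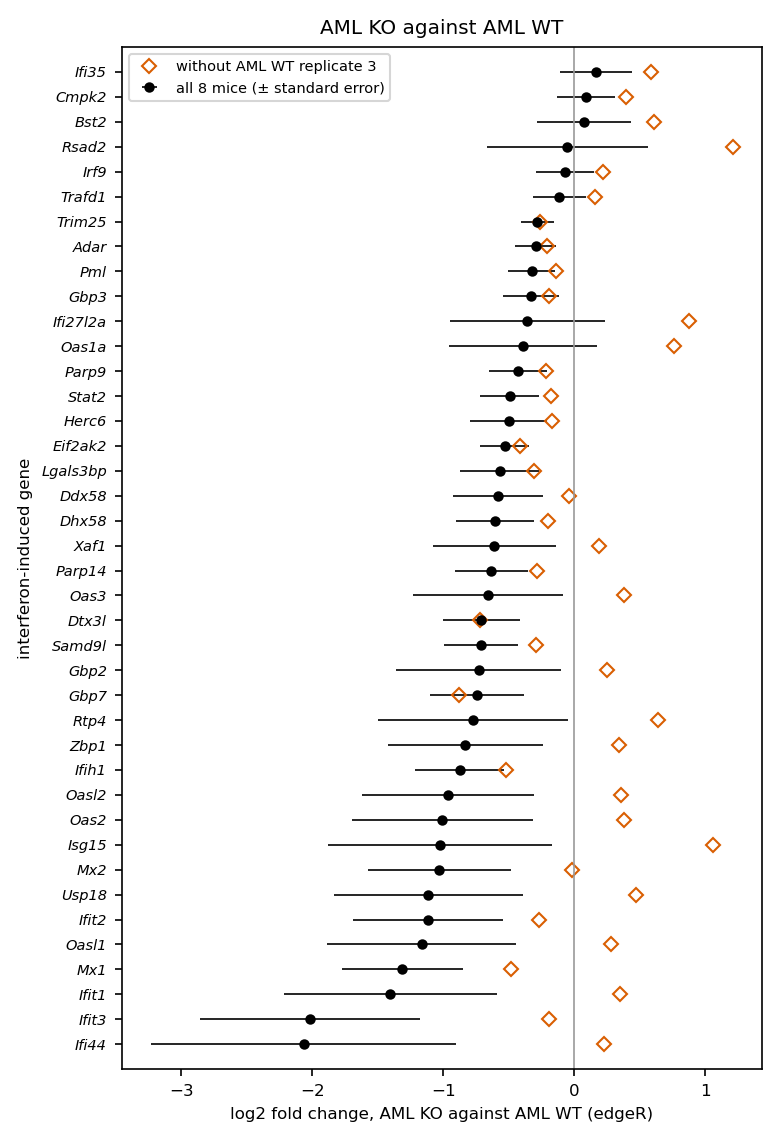
Log2 fold change of AML KO against AML WT (horizontal axis) for each of the 40 genes from edgeR, with all 8 mice (black points, bars are standard errors) and without AML WT replicate 3 (open diamonds). With all mice 37 points lie left of 0, and without that mouse 20 of 40 do.

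For the loss of 1 Gab2 allele, 0 of 40 genes passed the threshold between AML HET and AML WT BM, where 0.0225% of all genes did, and none had an unadjusted p under 0.05 (329 of all genes had). The median log2 fold change was 0.20, with 33 genes higher in AML HET. It was 0.75 without AML WT replicate 3, when 25 genes had an unadjusted p under 0.05 and a higher level in AML HET (3.4% of all genes), among them Usp18, Isg15 and Ifit3, those with the smallest p, with log2 fold changes of 1.87, 2.19 and 2.28, and 0 of 40 passed the threshold. It was −0.38 without AML HET replicate 1, when 3 genes were higher in AML HET and the group held 1 mouse, which was assumed to vary like the others.

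For the loss of the other allele, 0 of 40 genes passed between AML KO and AML HET BM, as did 0% of all genes. All 40 had a lower mean level in AML KO, with a median log2 fold change of −0.71. At an unadjusted p under 0.05 there were 8, all lower in AML KO (Ifit3, Mx1, Stat2, Ifih1, Parp9, Parp14, Samd9l and Eif2ak2), against 2.34% of all genes. AML HET replicate 1 was above every AML KO mouse in 39 genes and AML HET replicate 2 in 18. No share over all genes is given beside these 2 counts, so they are a description only. Without AML WT replicate 3, 27 of the 40 genes had an unadjusted p under 0.05, where 803 of all genes did. The number was also 27 when the AML WT mice were left out of the fit, where 903 of all genes had one. It was 3 without AML KO replicate 1 or AML KO replicate 3, where 634 and 772 of all genes had one. Without AML HET replicate 2, which left 1 mouse in that group, the median log2 fold change was −1.07. Without AML HET replicate 1, which again left 1 mouse in that group, the median was −0.21, 5 genes were higher in AML KO and none had an unadjusted p under 0.05. The comparisons share groups of mice, so the genes with an unadjusted p under 0.05 in both are not separate evidence.

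Most genes upstream of these 40 did not share the pattern of mice. No interferon gene was listed (0 of 8 searched, among them Ifnb1, Ifna4 and Ifng), and the table has no genes of very low count. None of the 6 interferon receptor genes was highest in the same 2 mice, and none passed the threshold in any of the 3 comparisons with all mice. The 3 with the highest level per length were Ifngr1, Ifnar2 and Ifngr2, at −0.43, −0.02 and 0.03 on the log2 scale for AML KO against AML WT. Ifnlr1, the receptor of interferon lambda, is named here after its values were seen. It had 0.885, 2.12 and 3.67 CPM in AML WT, 3.47 and 4.11 in AML HET, and 12.1, 6.70 and 7.99 in AML KO mice, so that AML WT and AML KO did not overlap. Its log2 fold change was 2.01 (standard error 0.45, edgeR adjusted p = 0.0575), so it did not pass with all mice. It passed without AML WT replicate 3 (2.58, edgeR adjusted p = 0.0217). The other fits that each left out 1 mouse are not reported for Ifnlr1, so this is no sign of a firm result. Its value in AML WT replicate 1 rested on 36 counts. The same 2 mice were highest in 2 of 6 interferon regulatory factors, in 2 of 10 sensors and adaptors and in 0 of 5 negative regulators. The receptor-bound kinases Jak2, Tyk2 and Jak1 stood at −0.48, −0.31 and −0.30 for AML KO against AML WT and did not pass.

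The interferon regulatory factors with the highest level per length, Irf5, Irf8 and Irf1, stood at 0.04, −0.02 and 0.01 and did not pass. The negative regulators with the highest level per length, the phosphatases Ptpn6 and Ptpn2 and the SUMO ligase Pias1, had log2 fold changes of −0.14, 0.20 and −0.26. Of the sensors and adaptors, 1 of 10 passed between AML KO and AML WT. Tlr3, the endosomal receptor of double-stranded RNA, had 9.42, 8.79 and 10.1 CPM in AML WT, 9.47 and 4.81 in AML HET, and 3.27, 4.44 and 2.30 in AML KO mice, and fell by 1.50 on the log2 scale (standard error 0.31, edgeR adjusted p = 0.0415). Its 3 AML WT values did not overlap with those of the AML KO mice. The adjusted p of Tlr3 was above 0.05 in 5 of the 8 fits that each left out 1 mouse (without any 1 AML WT mouse, AML KO replicate 1 or AML KO replicate 3), reaching 0.153.

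Further interferon-induced genes had the same 2 highest mice. AML WT replicate 3 and AML HET replicate 1 were the 2 highest in 34 of 47 other interferon-induced genes, against 4.96% of all genes. They were also the 2 highest in 15 of 16 GTPases and chemokines associated with interferon gamma. These lists were chosen with earlier results of these data known, so they are not independent evidence. The summed level of the 16 was 260, 222 and 606 CPM in AML WT, 538 and 244 in AML HET, and 209, 270 and 219 in AML KO mice. From these lists, 1 gene each passed between AML KO and AML WT. Ciita, the master regulator of MHC class II genes and the exception among the 16, had 54.7, 58.1 and 67.4 CPM in AML WT and 20.01, 33.5 and 16.7 in AML KO mice, and fell by 1.36 on the log2 scale (standard error 0.25, edgeR adjusted p = 0.0233). Ifitm1, a membrane protein that blocks viral entry, rose from 359, 332 and 434 CPM in AML WT to 714, 561 and 583 in AML KO mice (log2 fold change 0.72, standard error 0.15, edgeR adjusted p = 0.0375). With 1 mouse left out, Ciita was above 0.05 in 3 of 8 fits (without AML WT replicate 2, AML KO replicate 1 or AML KO replicate 3) and Ifitm1 in 6 of 8 (all but those without AML WT replicate 3 or AML KO replicate 2). None of these lists' genes passed in the other 2 comparisons.

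**Figure D5:**
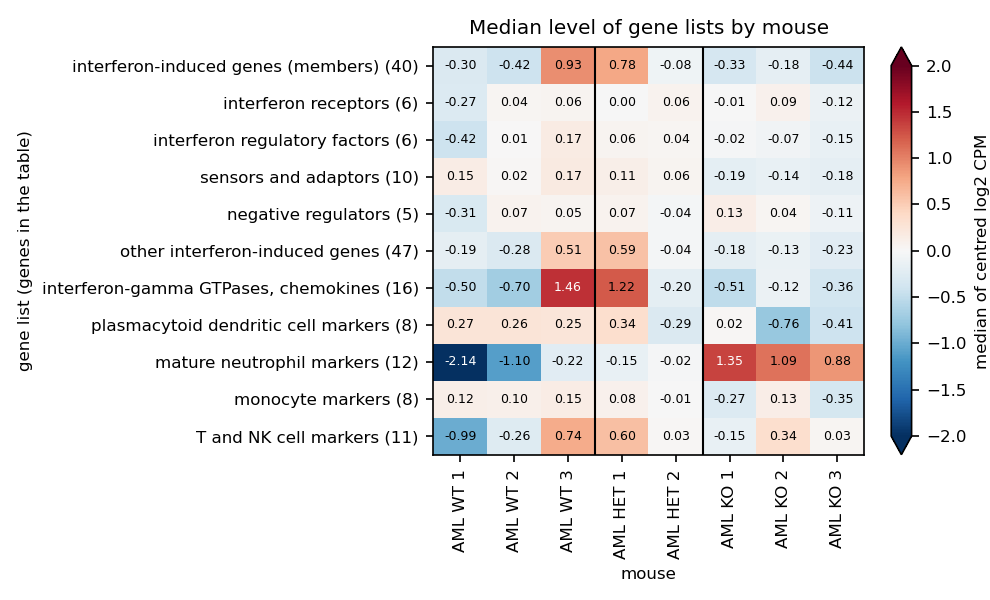
Median over the genes of each list (rows, number of genes in brackets) of the log2 CPM minus the mean of the 8 mice, in each mouse (columns, values printed). The interferon-induced lists and the T and NK cell markers are highest in AML WT replicate 3 and AML HET replicate 1, receptors and negative regulators stay within −0.31 and 0.13, and mature neutrophil markers are highest in the AML KO mice.

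Markers of other BM cells moved with genotype or with single mice. The summed level of 12 mature neutrophil markers was 1363 to 4794 CPM in AML WT, 5505 and 6196 in AML HET and 10627 to 17335 in AML KO mice, with 7 of 12 past the threshold and higher in AML KO. The 10 erythroid markers summed to 223 to 335 CPM in AML WT, 551 and 2062 in AML HET and 1453 to 5182 in AML KO mice (9 of 10 past the threshold, higher in AML KO), and the 7 megakaryocyte and platelet markers to 32.5 to 35.9, 53.8 and 84.3, and 202 to 302 (7 of 7, higher in AML KO). The 7 stem and progenitor markers were Kit, Cd34, Flt3, Mpo, Elane, Prtn3 and Ctsg, of which Mpo, Elane, Prtn3 and Ctsg encode granule proteins. They summed to 5556 to 6204 CPM in AML WT, 5592 and 6133 in AML HET and 7267 to 8609 in AML KO mice. Of the 7, 1 was past the threshold and higher in AML KO, and the sum does not measure stem cells alone. The 9 macrophage markers summed to 371 to 465, 332 and 292, and 206 to 335 CPM in the same groups, with 2 of 9 past the threshold in each direction. These marker levels thus moved with the genotype, and their part in the levels of the interferon-induced genes was not tested.

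For plasmacytoid dendritic cells, known as strong producers of type I interferon, 8 markers summed to 125, 114 and 123 CPM in AML WT, 118 and 88.9 in AML HET, and 111, 82.0 and 96.5 in AML KO mice. AML WT replicate 3 did not stand apart from the other AML WT mice, while AML HET replicate 1 was above AML HET replicate 2. The 8 monocyte markers summed to 4991 to 5806 CPM in AML WT, 5088 and 4674 in AML HET and 3744 to 5192 in AML KO mice. The 11 T and NK cell markers summed to 99.5, 104 and 135 CPM in AML WT, 146 and 117 in AML HET, and 131, 152 and 115 in AML KO mice, and AML WT replicate 3 and AML HET replicate 1 were the 2 highest in 5 of the 11. The 7 B cell markers in the table summed to 38.4 to 73.5 CPM in AML WT, 59.6 and 77.9 in AML HET and 56.1 to 82.7 in AML KO mice. None of the plasmacytoid dendritic cell, monocyte, T and NK cell or B cell markers passed the threshold between AML KO and AML WT. No marker of any list was at 0 in a mouse, and the part of these cells in the difference between mice was not tested.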

How the data were processed

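RNA of whole BM was sequenced by the authors on an Illumina HiSeq4000, and the submitters' processing notes name Trimmomatic 0.36, STAR 2.5.2b and the build mm10. The counting tool and strand setting are not given in the sources used here. The deposited table holds raw counts per gene without normalization. Symbols, positions and exon lengths were taken from GENCODE M21 (GRCm38).

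edgeR 4.0.16 in R 4.3.3 was run on all 8 mice (TMM, robust quasi-likelihood fit, no term besides genotype), with Benjamini-Hochberg adjustment over all 13305 genes, of which filterByExpr removed 0. CPM use TMM library sizes, and centred log2 CPM a prior count of 2. The test was tested on simulated data. Members of the list and the other lists were chosen with earlier results of these data known. All 40 members could be named. From other lists, genes past the threshold were named, or the 3 with the highest level per length, and for similarity the 10 genes with the highest Pearson's r. One gene of these lists is not reported here. The study speaks of AML KO mice and their AML WT littermates, but the labels tie no single mouse to a litter or batch. Each p-value of a fit sets a difference between genotypes against the spread between these mice.

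Alternatives were DESeq2 1.42.0, limma-voom (limma 3.58.1), upper-quartile and RLE scaling, other filters, a replicate block, removal of the 10 genes of highest count, fits of the compared groups alone and of each set of 7 mice. The removal of 2 mice together was chosen after seeing the data. Other work used Python 3.11.15, pandas 2.3.3, scipy 1.17.1 and matplotlib 3.10.9. Same-numbered AML WT and AML KO mice correlated at −0.51, −0.11 and −0.13 in their deviations from group means, so numbers were not taken as pairs.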

Additional observations from a re-analysis of the deposited data

How the results depend on the processing

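In each comparison, 0 of the 40 genes passed the threshold under all 18 alternatives (DESeq2 gave a p to 38 of them, not to Isg15 or Ifit3), with smallest adjusted p of 0.104 (AML KO against AML WT), 0.344 (AML HET against AML WT) and 0.180 (AML KO against AML HET). The alternatives with other filters kept all 13305 genes and repeated the main fit, so they add no separate evidence. With each mouse left out in turn, the median log2 fold change ranged from −0.85 to 0.070 for AML KO against AML WT and from −0.38 to 0.75 for AML HET against AML WT. The first was positive without AML WT replicate 3 alone, and the second was negative without AML WT replicate 1, AML WT replicate 2 or AML HET replicate 1. Without both AML WT replicate 3 and AML HET replicate 1 the first was 0.067. For AML KO against AML HET it stayed negative, from −1.07 to −0.21. The number of the 40 genes with an unadjusted p under 0.05 in the first comparison ranged from 2 to 22. It was highest without AML WT replicate 2, when 2099 of all genes had one. The median ratio of highest to lowest AML WT mouse ranged from 1.26 to 2.54 with a mouse left out, and was 2.77 to 2.81 under other scalings.

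Of 20 single-gene changes recomputed, which cover only part of the 40 genes, 5 changed sign, each without AML WT replicate 3. Over all 40 genes, the number higher in AML KO than in AML WT went from 3 with all mice to 20 without AML WT replicate 3. With each mouse left out, the log2 fold change of AML KO against AML WT ranged from −2.63 to 0.22 for Ifi44, from −1.50 to 1.06 for Isg15, from −1.87 to 0.35 for Ifit1, from −1.55 to 0.48 for Usp18 and from −1.62 to 0.28 for Oasl1. With the replicate block, 0 of 40 genes passed in each comparison, the median was −0.40 for AML KO against AML WT, and 19 of all genes passed there in place of 278. DESeq2 called 730 of all genes there, and 59 and 77 in place of 3 and 0 in the other 2 comparisons, with 0 of 38 in each. With 1 mouse left out, 40 (without AML WT replicate 2) to 370 of all genes passed between AML KO and AML WT. No AML WT mouse correlated best with the AML KO mouse of its own number. Depth does not limit most of the 40 genes, while the low counts of Ifi44 do.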

Other observations

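Outside the 40 genes, the 10 whose log2 CPM followed their mean most closely over the 8 mice were Irgm1, Klrk1, Irf7, Ifi204, Ifit3b, Ly6a, Tgtp2, Sp100, Capn11 and Tgtp1, with Pearson's r of 0.97 to 0.998 as a description of 8 libraries. Irf7, the factor that amplifies type I interferon production, had 43.1, 33.4 and 226 CPM in AML WT, 161 and 60.3 in AML HET, and 43.4, 46.5 and 34.9 in AML KO mice. Ly6a, which encodes the stem cell antigen Sca-1, had 8.63, 5.91 and 60.3 CPM in AML WT, 33.4 and 12.3 in AML HET, and 11.1, 11.0 and 8.63 in AML KO mice. Klrk1, encoding the activating receptor NKG2D, had 14.5, 11.2 and 33.7 CPM in AML WT, 32.0 and 17.0 in AML HET, and 14.2, 14.1 and 12.97 in AML KO mice. Capn11, a calpain gene, was at 4.07 CPM in AML WT replicate 3 and 4.38 in AML HET replicate 1, at 0.0364 in AML KO replicate 2 and at 0 counts in the other 5 mice.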
